A study of Arabidopsis thaliana with 14 samples.

Results

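These results describe 10 genes that lie at regions among those most enriched for the MADS-box protein FLM but are not among the flowering genes usually set beside it. They are AT2G20440, AT2G20450, AT3G15470, AT2G30600, AT5G41071, AT1G22460, ABCG20 (AT3G53510), AT1G44010, AT3G03460 and BZIP49 (AT3G56660), out of 29937 genes named in the deposited tables. They were chosen because their regions had the most reads with GFP-tagged FLM over control reads in the constructs gFLM and iFLMbeta, so the enrichment in those constructs is given as a description without a test. A deposited region was taken as belonging to a gene if it overlapped the gene or if the gene was its nearest neighbour on either side, within 3000 bp of the region's centre. This gave 17 of 19893 regions for gFLM, 12 of 13791 for iFLMbeta and 5 of 10006 for iFLMdelta. The best ranked region of each gene in gFLM and in iFLMbeta is called its site below, and AT2G20440 and AT2G20450 share a site, which leaves 9 sites.

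The study measured the binding of FLM to chromatin by immunoprecipitation and sequencing (ChIP-seq) in Columbia-0 seedlings of Arabidopsis thaliana, in 14 libraries. An antibody against GFP was used throughout, and the control libraries of each construct came from plants whose FLM carried no tag. For gFLM there were 3 GFP and 3 control libraries from seedlings at 15 days, grown at 16 °C. For each of the splice variants iFLMbeta and iFLMdelta there were 2 GFP and 2 control libraries from seedlings at 10 days, grown at 23 °C. Long days and collection at zeitgeber time 8 h were common to all groups. The labels do not explain the prefixes g and i or say which promoter drove each construct, how many lines were used or whether replicates came from separate plant pools, so the spread between replicates may be technical. A contrast of gFLM with iFLMbeta cannot be told apart from a contrast of age and temperature.

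FLM is a repressor of flowering of the MADS-box family, whose members bind DNA as dimers and in larger complexes at short A/T-rich elements called CArG boxes. Its transcript is spliced in alternative ways that depend on temperature, and the beta and delta forms differ in the choice between mutually exclusive exons. Of the 10 genes, 2 have a symbol in the RefSeq annotation (assembly TAIR10.1), and all 10 are listed there as protein-coding. ABCG20 encodes an ATP-binding cassette transporter of the G family, a group of which several members act in laying down suberin and other lipid barriers. BZIP49 encodes a basic leucine zipper transcription factor, a relative of bZIP17 and bZIP28, which act in the response to unfolded protein in the endoplasmic reticulum. The other 8 genes carry locus numbers only in that annotation and are given without a function.

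Each region comes with the authors' raw read count in every GFP and every control library. Enrichment is given as log2 of (GFP reads + 1) over (control reads + 1) in each replicate, less the log2 ratio of the 2 libraries' reads over all deposited regions. A ratio of 0 therefore means the same share of the reads in deposited regions. Reads in all deposited regions ranged from 17293 to 437712 per library, and in gFLM replicate 2 was the shallowest in both the GFP and the control library. These sums are not sequencing depths, since only the reads in listed regions are in the tables. Positions are those of build TAIR10 and distances to genes are counted from the centre of a region, as the deposited tables give them.

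The 9 sites held a large share of the reads for their size. In gFLM they covered 3236 bp, which is 0.0802% of the bases in deposited regions, and drew 1.14% (95% Wilson interval 1.11 to 1.17), 1.68% (1.59 to 1.77) and 0.884% (0.839 to 0.931) of the reads of GFP libraries 1, 2 and 3. In the control libraries the share was 0.0734% (0.062 to 0.0869), 0.0694% (0.0397 to 0.121) and 0.0858% (0.0738 to 0.0996), near the share of bases. In iFLMbeta the sites covered 2785 bp or 0.118% of the bases, with 0.997% (0.954 to 1.04) and 1.14% (1.09 to 1.19) of the GFP reads and 0.159% (0.137 to 0.184) and 0.148% (0.118 to 0.184) of the control reads. These intervals cover counting error only, because reads amplified by PCR without molecular identifiers are not independent molecules.

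**Figure D1:**
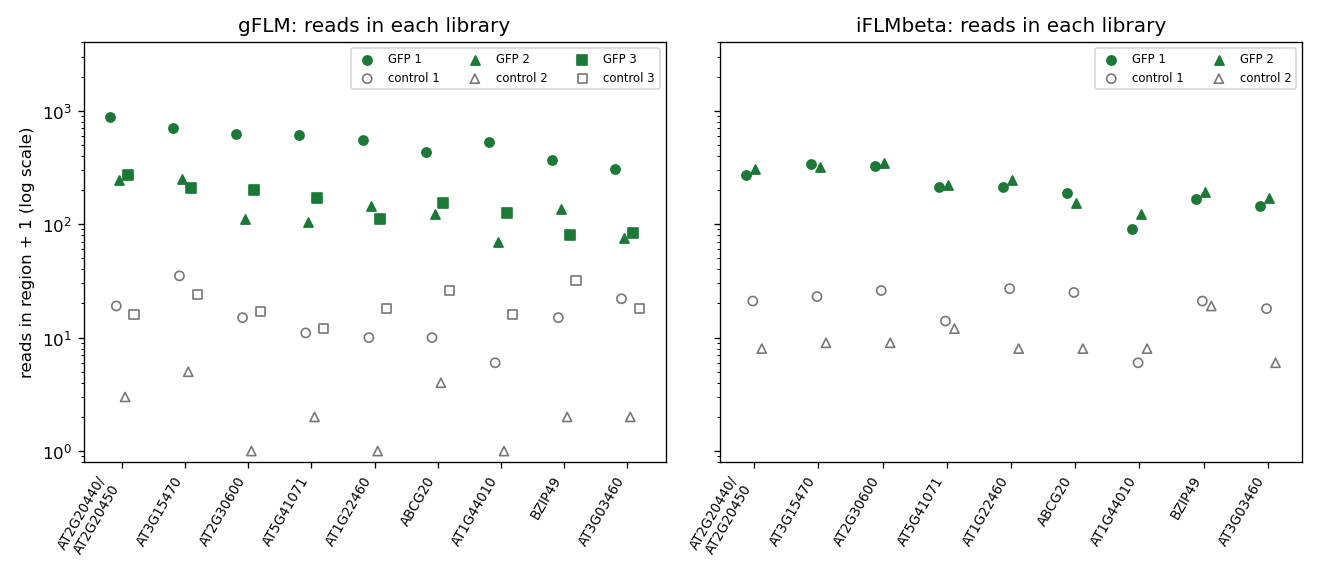
Reads in the region of each site, plus 1, on a log scale, for gFLM (3 GFP and 3 control libraries) and iFLMbeta (2 and 2). Filled green symbols are GFP libraries and open grey symbols control libraries, with the shape giving the replicate number. At each site the lowest GFP count lies above the highest control count, as it does at 1.83% of all gFLM and 67.2% of all iFLMbeta regions, and 3 sites had 0 reads in gFLM control library 2.

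The plot of reads by library shows the raw counts before any scaling. At 9 of 9 sites the lowest GFP count was above the highest control count in gFLM, beside 1.83% of all gFLM regions. The same held at 9 of 9 sites in iFLMbeta, where it is the usual state, at 67.2% of all regions. After scaling to the reads in deposited regions, every GFP library was above every control library at 9 of 9 sites in gFLM, beside 4.63% of all gFLM regions, and at 9 of 9 in iFLMbeta, beside 12.5%. A region passed where the authors' q-value was at most 0.05 in each replicate, and 9 of 9 sites passed in gFLM, beside 0.799% of all regions, and 9 of 9 in iFLMbeta, beside 1.46%. Since these counts chose the genes, nothing is read from them.

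At 5 sites the start of a member faced the bound region. These are the shared site of AT2G20440 and AT2G20450 and those of AT2G30600, AT1G22460, BZIP49 and AT1G44010. At the other 4, those of AT3G15470, AT5G41071, ABCG20 and AT3G03460, it was the end of the member that faced the region, and the start of a neighbouring gene faced it from the other side.

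The shared site of AT2G20440 and AT2G20450 ranked 1 in gFLM (chromosome 2, 8813484 to 8813859). The genes are 217 bp apart and transcribed away from each other. The centre is 27 bp upstream of the start of AT2G20440 and 190 bp upstream of that of AT2G20450. At 376 bp the region reaches into AT2G20440 but, by these distances, ends just short of the start of AT2G20450. GFP libraries 1, 2 and 3 held 876, 245 and 268 reads there and the control libraries 18, 2 and 15. All 3 GFP libraries were high and all 3 controls low, and the replicates gave log2 ratios of 4.27, 4.25 and 4.40, the narrowest spread of the 9 sites in gFLM. The mean was 4.31 ± 0.09 (SD, n = 3), or 19.8-fold. With 2 reads in control library 2, counting error alone gives 2.96 to 7.88 for replicate 2 (exact interval), far wider than this SD. The mean was 4.42 with a pseudocount of 0.5 reads and 3.72 with 5 reads. The narrow spread is therefore no measure of how precisely the ratio is known. In iFLMbeta the site ranked 4 (8813531 to 8813830), where 268 and 304 GFP reads against 20 and 7 in the controls gave a log2 ratio of 3.15 ± 0.45 (SD, n = 2). Which of the 2 genes, if either, the binding bears on cannot be read from these counts.

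The site of AT2G30600 ranked 4 in gFLM (chromosome 2, 13036678 to 13037040), with its centre 17 bp upstream of the start of AT2G30600. On the other side the nearest gene is WRKY21, a transcription factor of the WRKY family, whose end lies 1265 bp away. GFP reads were 617, 109 and 197 and control reads 14, 0 and 16. The GFP libraries were again all above the controls, at log2 ratios of 4.10, 4.67 and 3.87 and a mean of 4.22 ± 0.41 (SD, n = 3). Control library 2 had no read there. Against a floor of 3 reads GFP library 2 was 8.41-fold higher, and the lower limit of the exact interval for counting error was 6.72-fold. In iFLMbeta the site ranked 3 (13036705 to 13037020), with 326 and 347 GFP reads against 25 and 8 control reads and a mean of 3.15 ± 0.48 (SD, n = 2).

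AT1G22460 is the only member whose 5' UTR held the centre of its site (chromosome 1, 7930319 to 7930716), which ranked 6 in gFLM. The libraries held 554, 144 and 109 GFP reads and 9, 0 and 17 control reads. Replicates differed more here, with log2 ratios of 4.53, 5.07 and 2.94 and a mean of 4.18 ± 1.10 (SD, n = 3), replicate 3 being the low value. With no read in control library 2, GFP library 2 was 11.1-fold higher against the floor of 3 reads. The lower limit of the exact interval for counting error was 8.92-fold. In iFLMbeta the site ranked 5 (7930354 to 7930713), with 210 and 244 GFP reads against 26 and 7 control reads and a mean of 2.64 ± 0.73 (SD, n = 2), the widest spread of the 9 sites in that construct.

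The BZIP49 site (chromosome 3, 20988042 to 20988444) ranked 12 in gFLM and lies with its centre 29 bp upstream of the gene's start. It is the widest of the gFLM sites at 403 bp. Its GFP counts were 367, 134 and 79 and its control counts 14, 1 and 31. Replicate 3 stood apart, with the fewest GFP reads and the most control reads, and log2 ratios were 3.36, 3.97 and 1.65 with a mean of 2.99 ± 1.20 (SD, n = 3), the widest spread of the 9. Counting error alone gives 1.07 to 2.33 for replicate 3 and 2.69 to 4.34 for replicate 1 (exact 95% intervals), which do not overlap. In iFLMbeta the site ranked 11 (20988037 to 20988405), with 164 and 192 GFP reads against 20 and 18 control reads and a mean of 1.84 ± 0.40 (SD, n = 2), the lowest of the 9 sites in that construct.

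The site of AT1G44010 ranked 9 in gFLM (chromosome 1, 16713512 to 16713851) and is the farthest of these 5 from a start, with its centre 940 bp upstream of AT1G44010. The divergent neighbour AT1G44000 starts 3968 bp away. GFP reads of 532, 69 and 124 stood against 5, 0 and 15 control reads, which gave log2 ratios of 5.21, 4.02 and 3.30 and a mean of 4.18 ± 0.97 (SD, n = 3). GFP library 2 was 5.32-fold higher against the floor of 3 reads, with a lower limit of 4.21-fold from the exact interval for counting error. In iFLMbeta it ranked 13 (16713567 to 16713844) with 90 and 122 GFP reads, the fewest of the 9 sites, against 5 and 7 control reads, and its mean was 2.62 ± 0.65 (SD, n = 2).

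**Figure D2:**
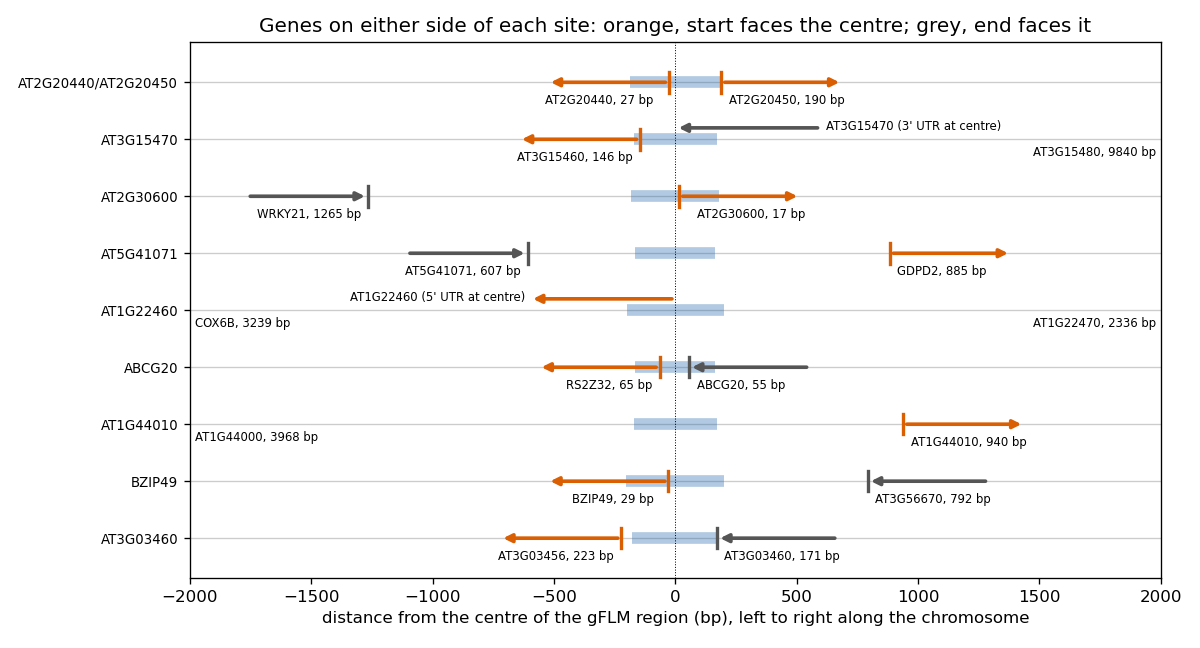
Genes around the centre of each gFLM site within 2000 bp, to scale on the horizontal axis (bp, left to right along the chromosome). Blue bars are the deposited regions, vertical ticks the gene ends nearest to the centre and arrows the direction of transcription, drawn with a fixed length that is not the length of the gene. Orange marks a gene whose start faces the centre and grey a gene whose end faces it, and each of the 9 sites has an orange gene within 1000 bp or a 5' UTR at its centre.

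Among the sites at which a member's end faces the region, that of AT3G15470 was the strongest by rank, at 2 in gFLM (chromosome 3, 5216238 to 5216578) and 1 in iFLMbeta (5216243 to 5216547). Its centre is in the 3' UTR of AT3G15470 and 146 bp upstream of the start of AT3G15460, which is transcribed in the same direction. GFP libraries held 709, 251 and 209 reads and controls 34, 4 and 23, the highest control count of the 9 sites in each of libraries 1 and 2. Log2 ratios were close together, at 3.08, 3.54 and 3.46 with a mean of 3.36 ± 0.25 (SD, n = 3). For replicate 2, with 4 control reads, counting error alone gives a wider range of 2.49 to 5.75 (exact interval). In iFLMbeta the libraries held 341 and 321 reads with GFP and 22 and 8 without, and the mean of 3.21 ± 0.23 (SD, n = 2) was the highest of the 9.

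The AT5G41071 site ranked 5 in gFLM (chromosome 5, 16440694 to 16441023). It lies between 2 genes in the same orientation, 607 bp past the end of AT5G41071 and 885 bp upstream of the start of GDPD2, which encodes a glycerophosphodiester phosphodiesterase. Reads were 605, 104 and 169 with GFP and 10, 1 and 11 in the controls. Log2 ratios of 4.52, 3.60 and 4.16 gave a mean of 4.09 ± 0.46 (SD, n = 3). In iFLMbeta it ranked 6 (16440693 to 16440965), with 212 and 221 GFP reads against 13 and 11 control reads and a mean of 2.75 ± 0.46 (SD, n = 2).

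ABCG20 has its site at the end of the gene (chromosome 3, 19836990 to 19837318), ranked 7 in gFLM. The centre is 55 bp past the end of ABCG20 and 65 bp upstream of the start of RS2Z32, which encodes an arginine/serine-rich zinc knuckle protein of the kind that takes part in splicing. The region is wider than the 120 bp between the genes, so it reaches into both. GFP reads were 430, 122 and 154 and control reads 9, 3 and 25. Replicate 1 was the high value, with log2 ratios of 4.17, 2.83 and 2.91 and a mean of 3.30 ± 0.75 (SD, n = 3). In iFLMbeta the site ranked 9 (19837017 to 19837298), and 186 and 152 GFP reads against 24 and 7 control reads gave 2.27 ± 0.29 (SD, n = 2).

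The AT3G03460 site had the lowest enrichment of the 9 in gFLM and ranked 15 (chromosome 3, 822588 to 822943). Its centre is 171 bp past the end of AT3G03460 and 223 bp upstream of the start of AT3G03456. The libraries held 308, 75 and 82 GFP reads and 21, 1 and 17 control reads. Even here no control library came near a GFP library, and log2 ratios were 2.55, 3.14 and 2.54 with a mean of 2.74 ± 0.34 (SD, n = 3), or 6.69-fold. In iFLMbeta it ranked 10 (822624 to 822925) with 145 and 170 GFP reads against 17 and 5 control reads and a mean of 2.61 ± 0.62 (SD, n = 2).

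In iFLMbeta the columns of the table name a construct and a number but no single library, and the SDs there rest on pairing GFP with control columns of the same number. With the control columns crossed, the SD fell to 0.05 at AT2G20440/AT2G20450 and rose to 1.40 at AT1G44010, while the means stayed the same by construction.

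The position of the sites was partly set by the choice of genes, since a region had to overlap a member or lie within 3000 bp of it, and high regions farther from a start, such as those at SEP3 and ATC, were left out as flowering genes. Shares over regions without such a limit are given beside the sites as a description. The centre of each site lay in a 5' UTR or within 1000 bp upstream of the start of some gene, in 9 of 9 sites in both constructs. This was so for 72 of the 144 other gFLM regions that passed the q-value in every replicate and have the needed annotation (50.0%), and for 48.7% of all gFLM regions. In iFLMbeta it was 96 of 190 other passing regions (50.5%) and 29.6% of all. Within 300 bp the count was 7 of 9 sites, beside 49 of 143 other passing gFLM regions (34.3%). Regions with incomplete annotation were kept where a near start was found and dropped otherwise, which raises these shares. With none dropped, a start within 1000 bp was found for 72 of 150 other passing gFLM regions and for 8964 of all 19893. The distance of 1000 bp was chosen after the sites' distances had been seen, and no test was made. Of the 7 sites that lie between genes, 2 are between divergent genes, 5 between genes in tandem and 0 between convergent genes. Over all intergenic gFLM regions the shares were 34.3%, 54.1% and 11.6%.

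The sites were wide. In gFLM they measured 329 to 403 bp with a median of 356 bp, close to the median of 349 bp for the other 150 passing regions, and the median of all deposited regions was 177 bp. In iFLMbeta they measured 273 to 369 bp with a median of 302 bp, beside 273 bp for the other 193 passing regions and 156 bp for all. Control reads per 100 bp were higher at the sites than over all regions in 4 of the 5 control libraries, by their medians. Over the sites these were 3.47, 0.281 and 4.41 in gFLM control libraries 1, 2 and 3, beside 2.75, 0 and 4.58 over all regions. In iFLMbeta they were 6.67 and 2.52, beside 4.26 and 1.99.

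**Figure D3:**
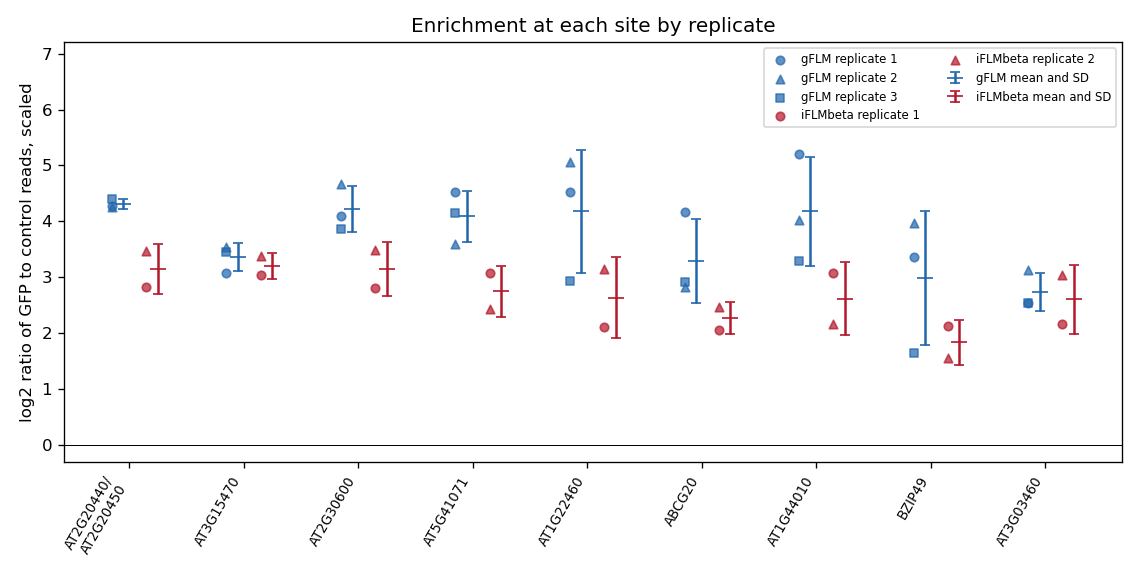
Log2 ratio of GFP to control reads at each site, scaled to the reads in deposited regions, for gFLM (blue, 3 replicates) and iFLMbeta (red, 2 replicates). Points are replicates and bars the mean ± SD; the gFLM means run from 2.74 to 4.31 and the iFLMbeta means from 1.84 to 3.21.

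The plot of ratios by replicate sets both constructs side by side. Enrichment at the sites had a median log2 ratio of 4.09 in gFLM and 2.64 in iFLMbeta, where the other passing regions had medians of 1.67 and 0.97 and all regions −0.31 and −0.15. gFLM was above iFLMbeta at 9 of 9 sites, by 0.13 to 1.56 with a median of 1.15, but at 8 of 9 with a pseudocount of 5 reads and at 7 of 9 without scaling. The sites that turned were AT3G03460 in both cases and AT3G15470 without scaling. Those 2 sites also had the smallest differences, 0.13 at AT3G03460 and 0.15 at AT3G15470, both below the SD of either construct at that site. The largest differences were 1.56 at AT1G44010 and 1.55 at AT1G22460. At these sites the SDs were 0.97 and 1.10 in gFLM and 0.65 and 0.73 in iFLMbeta, and gFLM control library 2 had 0 reads. With a pseudocount of 5 reads the gFLM and iFLMbeta means were 3.09 and 2.01 at AT1G44010, and 3.18 and 2.27 at AT1G22460. A higher ratio in gFLM was common: of 100 other pairs of overlapping regions that passed in both constructs, 84 (84.0%) had it, with a median difference of 0.73. These values are a description, since both constructs were used to choose the genes and differ in age and temperature.

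The positions of the sites were close in both constructs. The centres differed by 3 bp at AT2G30600 and ABCG20 and by at most 29 bp, at AT5G41071, with a median of 13 bp. Over the 100 other shared pairs the median was 15 bp, with quartiles of 5 and 33 bp. The iFLMbeta region lay wholly inside the gFLM region at 7 sites, and 99.6% of it did at AT5G41071 and 98.6% at BZIP49.

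Replicates within gFLM did not rank the sites alike. The median ratio over the 9 sites was 4.17 in replicate 1, 3.97 in replicate 2 and 3.30 in replicate 3. Replicate 3 was the lowest of the 3 at 5 sites, which include AT1G22460, AT1G44010 and BZIP49. GFP library 3 also had the smallest share of its reads in the sites, as given above.

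**Figure D4:**
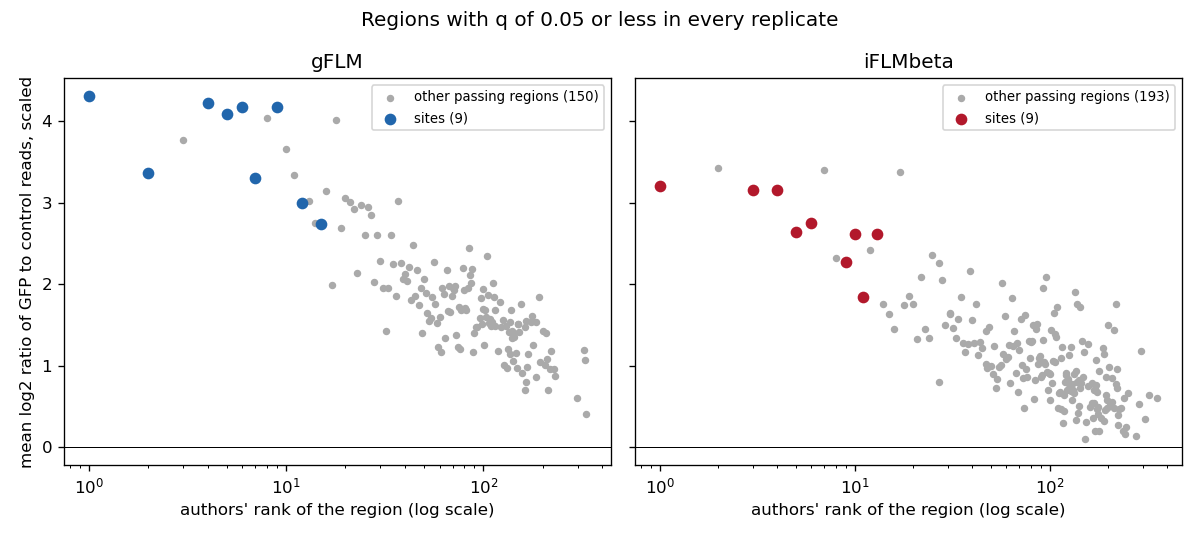
Mean log2 ratio against the authors' rank (log scale) for regions that passed the q-value in each replicate, in gFLM (159 regions) and iFLMbeta (202). Coloured points are the 9 sites, which fill ranks 1 to 15 in gFLM and 1 to 13 in iFLMbeta together with a few other regions in grey.

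The plot of ratio against rank places the sites among all passing regions. In gFLM they hold ranks 1, 2, 4, 5, 6, 7, 9, 12 and 15, and in iFLMbeta ranks 1, 3, 4, 5, 6, 9, 10, 11 and 13. The flowering genes interleave with them. The region of SEP3, whose MADS-box product specifies floral organs, ranked 3 in gFLM at 3.77 ± 0.58 (SD, n = 3) and 2 in iFLMbeta at 3.42 ± 0.84 (SD, n = 2). That of ATC, which is related to TFL1, ranked 11 and 7. SOC1, an activator of flowering, ranked 22 at 2.93 ± 0.43 (SD, n = 3) and 27 at 2.26 ± 1.35 (SD, n = 2), and in gFLM the means of BZIP49, AT3G03460 and ABCG20 lie within 1 SD of it, with AT3G15470 about 1 SD above it. No sharp break marks the end of the member list. In gFLM the region at NAC3 on rank 14 had 2.75 ± 0.51 (SD, n = 3) and that at ALC on rank 16 had 3.14 ± 1.05 (SD, n = 3), on either side of AT3G03460 at 2.74. In iFLMbeta NAC3 on rank 12 had 2.41 ± 0.49 (SD, n = 2). The region on rank 14, between LEJ2 (2486 bp away) and AP2 (4784 bp away), had 1.76 ± 0.53 (SD, n = 2).

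The quasi-likelihood test of edgeR over all regions, in which GFP and control libraries are compared, called 30 of 5230 gFLM regions higher in GFP (0.574%), and 9 of 9 sites were among them. In iFLMbeta it called 25 of 7337 (0.341%), again with 9 of 9 sites. Without replicate 1, 2 or 3 the gFLM count was 0, 10 and 12 and held 0, 6 and 8 of the sites. Without GFP library 1 or 2 the iFLMbeta count was 23 and 5, and without control library 1 or 2 it was 3 and 5. Regions were called and the genes chosen on the same libraries, so these counts are background and no p-value is given for a site.

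iFLMdelta is the only construct that was not used to choose the genes. Its table lists no region that overlaps any of the 9 sites, by the gFLM or the iFLMbeta position. Overlap of 1 bp or more with an iFLMdelta region was also uncommon elsewhere, at 8 of 150 other passing gFLM regions (5.33%) and 3.69% of all gFLM regions, and at 11 of 193 other passing iFLMbeta regions (5.70%) and 5.34% of all. With 9 sites a count of 0 is near these shares. The table holds reads for listed regions only, so the iFLMdelta reads at the sites themselves are unknown and no ratio is given there.

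The nearest iFLMdelta region came closest at AT1G44010. It lies 59 bp from the gFLM site (chromosome 1, 16713313 to 16713452), ranked 6694, and held 16 and 8 GFP reads beside 4 and 7 control reads. The replicates went in opposite directions, at log2 ratios of 0.45 and −0.35, so no enrichment can be told from these reads. At AT3G03460 and AT3G15470 the nearest region was 1178 and 1277 bp away. At the other 6 sites the gap ran from 3685 bp at ABCG20 to 24966 bp at AT2G30600.

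In all, 4 members had iFLMdelta regions, 5 regions together, and 0 of the 5 passed the q-value in both replicates, beside 0.410% of all iFLMdelta regions. The best ranked was in the coding sequence of AT3G15470 (rank 106, chromosome 3, 5217856 to 5218128). It held 52 and 21 GFP reads against 11 and 19 control reads, at log2 ratios of 0.83 and −0.38, so the GFP and control libraries overlapped once scaled. In edgeR's quasi-likelihood test the log2 fold change was 0.24 with an SE of 0.60 and an adjusted p of 1. A region near ABCG20 (rank 2245) had 29 and 15 GFP reads against 16 and 6, and a fold change of 0.08 with an SE of 0.60 and an adjusted p of 1. A region in the coding sequence of AT3G03460 (rank 4554) had 27 and 21 GFP reads against 18 and 13, and a fold change of −0.25 with an SE of 0.58 and an adjusted p of 1. Neither of the AT1G44010 regions (ranks 6694 and 9736) passed the filter on low counts, so they were not tested in the main setting. With no filter their fold changes were −0.01 and −0.58, and by DESeq2 −0.03 and −0.6, and neither was called. Over the alternatives the adjusted p of the 3 tested regions ran from 0.986 to 1, and the sign at AT3G15470 and ABCG20 turned under some of them. Over all 4607 iFLMdelta regions tested edgeR made 0 calls, and before adjustment 6 regions were higher and 2 lower at p under 0.05. DESeq2 likewise made 0 calls, with 7 higher and 1 lower before adjustment. By either method far less than a share of 0.05 of the regions reached p under 0.05, the share expected where nothing differs. The tests were thus conservative here, and their 0 calls say little about binding by iFLMdelta. With SEs near 0.60 on the log2 scale, moderate enrichment at the 3 tested member regions was not detectable.

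**Figure D5:**
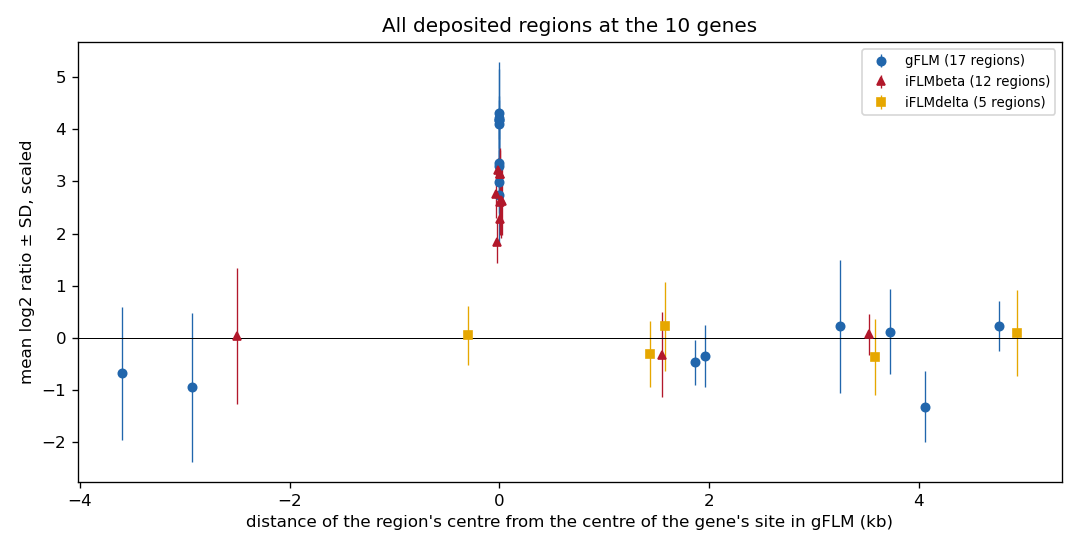
Mean log2 ratio ± SD of every deposited region at the 10 genes against the distance of its centre from the centre of the gene's gFLM site, in kb, for gFLM (17 regions, n = 3 replicates), iFLMbeta (12, n = 2) and iFLMdelta (5, n = 2). High ratios stand at or near distance 0, where the sites lie, and all regions away from the sites lie between −1.32 and 0.22. A site is by definition the best ranked region of its gene in gFLM or iFLMbeta.

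Away from the sites the regions of the same genes had low ratios, as the plot of ratio against distance shows. In gFLM and iFLMbeta this contrast is largely set by the choice, since a site is the best ranked region of its gene. In gFLM 5 members had 8 further regions, with ratios from −1.32 to 0.22 and a median of −0.41, beside −0.31 over all gFLM regions. The lowest was at ABCG20, and the highest, 0.22, was reached at AT3G15470 (rank 3375) and AT3G03460 (rank 4878). In iFLMbeta 2 members, AT3G15470 and BZIP49, had 3 further regions, from −0.32 to 0.07. None of these 11 passed the q-value in every replicate, and the best ranks were 3170 and 3854. The 3000 bp limit decided little: the last regions inside it, at 1700 bp (AT1G44010) and 2229 bp (ABCG20) in iFLMdelta, had ratios of −0.37 and 0.09, and the first outside it, at 3006 bp (AT3G15470, gFLM) and 3982 bp (AT3G15470, iFLMdelta), had −0.54 and −0.15.

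Regions at related genes lay near the level of all regions. Of 11 genes in that list, which are 7 ABCG transporters close to ABCG20, the 3 factors bZIP17, bZIP28 and bZIP60 beside BZIP49, and AT4G27090 beside AT2G20450, 9 had a gFLM region by the same rule. Their 12 gFLM regions had ratios from −1.20 to −0.01 with a median of −0.32, beside −0.31 over all regions, and 0 of 12 passed. In iFLMbeta 8 of them had 9 regions with a median of −0.27, beside −0.15, and in iFLMdelta 7 had 7 regions with a median of −0.10, beside −0.03, and 0 passed in either.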

How the data were processed

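Each construct has 1 deposited table of regions. Per the file headers, a row gives the position, the raw read count of each GFP and control library, q-values by replicate (Benjamini-Hochberg), the log2 rank product of these q-values with its rank, and the nearest genes. Coordinates follow TAIR10, which the submitters' processing notes name as the genome build. How reads were aligned, how duplicates were handled and from which replicates regions were called is not given in the sources used here. Deposited q-values and log2 rank products were used unchanged. Libraries were scaled by their reads in deposited regions and a pseudocount of 1 read was added. The q-value threshold was 0.05, to be met by all replicates. Quoted cells with tabs cut some rows short, which left the strand of 1 neighbour unread in 5135 gFLM, 1132 iFLMbeta and 709 iFLMdelta rows. In total 0 columns of per-sample values lacked a sample or group.

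Counts were tested with edgeR 4.0.16 in R 4.3.3 (quasi-likelihood, TMM, filterByExpr, Benjamini-Hochberg over all regions tested, threshold 0.05), after the script had been tested on simulated data. DESeq2 1.42.0 was an alternative, and Python 3.11.15 gave the ratios. iFLMbeta and iFLMdelta columns were used as unnumbered replicates of their group. The members, the gene lists and the tests were chosen with earlier results of these data known. The genes named are all 10 members, genes at their sites, 3 flowering genes, 11 relatives and some of the regions ranked between or next to the members. Exact and Wilson intervals are at 95%, and a floor is 3 reads per library. Searches for sequence motifs were not made here.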

Additional observations from a re-analysis of the deposited data

How the results depend on the processing

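No ratio at a site changed direction under any alternative. The median log2 ratio over sites in gFLM (4.09) was 3.09 with a pseudocount of 5 reads, 5.11 without scaling, and 3.66 to 4.06 without 1 replicate. In iFLMbeta (2.64) it was 2.27, 3.95 and 2.81 to 3.05. The 9, 9 and 0 members' regions passing in gFLM, iFLMbeta and iFLMdelta were the same at q of 0.01 and with neighbours within 1000 bp. gFLM was above iFLMbeta at 7 to 9 sites over 4 scalings and pseudocounts, chosen as a comparison after seeing the data. edgeR's gFLM count (30) was 0 with no filter, 71 by DESeq2, 116 with the replicate block (115 higher, 1 lower), and 0 to 12 without 1 replicate: 0, 10 and 12 without replicates 1, 2 and 3. The 9 sites called fell to 0 with no filter and to 0, 6 and 8 without replicates 1, 2 and 3. Calls at the sites in gFLM and iFLMbeta are background only, since the same libraries were used to choose the genes. The labels do not say that a shared number marks paired libraries, though the authors' q-values are given by replicate number. Deviations of same-numbered libraries correlated at 0.40, −0.01 and 0.12, and those of differently numbered libraries at −0.35 to 0.3. With 3 libraries per group these values cannot tell whether the numbers mark pairs. The iFLMbeta count (25) was 14 with no filter, 14 with the column number as a replicate block, and 3 to 23 without 1 library (23 and 5 without GFP 1 and 2, 3 and 5 without control 1 and 2), with sites called at 8, 9 and 2 to 9. In iFLMdelta the count was 0 throughout, where the replicate block used column numbers. The uncalled fold change at ABCG20 (0.08) was −0.10 with no filter, −0.09 by DESeq2 and −0.33 to 0.68 without 1 library, and that at AT3G15470 (0.24) was −0.29 to 0.90. Leaving out an iFLMbeta or iFLMdelta library leaves 1 in its arm, assumed to vary like the other group. The cause of these moves was not tested. The motif alternatives were not run. Low control counts, 0 to 4 in gFLM control library 2, limit the ratios of replicate 2.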
